A study of Mus with 18 samples.

Results

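RAW264.7 cells treated with the polymer labelled PPLG-4V-SA after LPS were compared with RAW264.7 cells treated with the polymer labelled POx-SA after LPS. Libraries were chosen by their labelled treatment, which gave 3 of PPLG-4V-SA and 3 of POx-SA, 6 of the series' 18. RAW264.7 is a mouse macrophage-like tumour line, so the replicates are not animals, and cells of both groups had been stimulated by LPS. The other 12 libraries, 3 a group, came from cells given PPLG-SA or PPLG-2V-SA after LPS, from cells given LPS alone and from untreated cells. The series describes the polymers as carrying sialic acid and concerns Siglecs and the cytokine response. The labels give neither the meaning of the polymer codes nor doses or times, so structure, dose and time of the 2 polymers cannot be told apart. The labels also do not say whether replicates were separate cultures, and p-values measure only the spread between these libraries.

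LPS, a bacterial glycolipid, is bound by Cd14, Ly96 and the receptor Tlr4. The adaptor MyD88 then leads to NF-kB, MAP kinases and cytokine genes, and the adaptor TRIF leads to interferon-beta and, through the interferon receptor, to interferon-stimulated genes. Siglecs are lectins that bind sialic acids, and many of them recruit the phosphatases SHP-1 and SHP-2, which dampen signals of activating receptors.

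Total counts were 16208465, 16720984 and 17385958 with PPLG-4V-SA and 13417940, 14749446 and 16033361 with POx-SA. Replicates were tighter with PPLG-4V-SA, where the median SD of log2 CPM per gene was 0.101, than with POx-SA, where it was 0.313. CPM are read counts scaled to a common library size, adjusted by TMM, a trimmed mean of ratios between libraries. Means are given ± SD over 3 libraries, and log2 fold changes, written log2 change in brackets, ± standard error. In each POx-SA library 7.40% to 8.80% of genes lay more than 1 log2 unit from the mean of the other 2 libraries, against 2.00% to 2.28% in the PPLG-4V-SA libraries. POx-SA replicate 3 and LPS replicate 3 deviated from their groups together (correlation 0.739 across genes, which are not independent), and results that turn on them are given without them. Mitochondrially encoded genes took 3.77% to 4.22% of counts with PPLG-4V-SA and 4.92% to 7.17% with POx-SA. All 25 macrophage identity genes were detected, and their summed level was 7435 to 7829 CPM of plain totals with PPLG-4V-SA and 8418 to 10298 CPM with POx-SA. Counts were assigned in a way the sources used here do not give, so genes with close copies, such as Hspa1a and Hspa1b, Lyz1 and Lyz2, histone, Oas, Ifit, H2-T and Bcl2a1 genes, are uncertain. Overlapping genes, such as ATP6 and ATP8 or ND4L and ND4, are uncertain too.

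Many tested genes differed between the polymers, and how many depended on the fit. Genes of interferon responses, sterol synthesis, DNA replication and mitosis were higher with PPLG-4V-SA, as were Il1b, Il6, Il10 and Ccl2. Genes of the antioxidant factor NRF2, metallothioneins, 14 of 25 tested cytosolic heat shock chaperones, histone mRNAs, Cxcl2 and Tnf were lower. By edgeR's quasi-likelihood test at a Benjamini-Hochberg adjusted p below 0.05, 7801 of 13482 tested genes (57.9%) were called, 3986 higher (29.6%) and 3815 lower (28.3%) with PPLG-4V-SA. Of these, 3330 (24.7% of tested genes) changed at least 2-fold, 1729 of them upward (12.8%) and 1601 downward (11.9%). At least 16-fold changes were found for 106 genes that rose and 192 that fell. The 3 PPLG-4V-SA values lay wholly above or below the 3 POx-SA values for 7971 genes (59.1%). With plain library totals in place of TMM, 5510 genes were higher and 2541 lower, and the median log2 fold change of all genes was 0.27. On deposited FPKM plus 1, with a median of 0.19, 5648 were higher and 2287 lower. In the 6 libraries of the 2 polymers alone, without a replicate block, 3215 of 13479 tested genes were higher and 3103 lower. The share called was therefore smaller there than the 57.9% of the fit to all libraries. The counts of the gene groups that follow are read against the shares of 29.6% and 28.3%. They are also read against the median log2 fold change over all tested genes, 0.01. RNA was taken from whole cultures, so a lower count cannot be told apart as fewer cells of a kind or less RNA per cell.

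**Figure D1:**
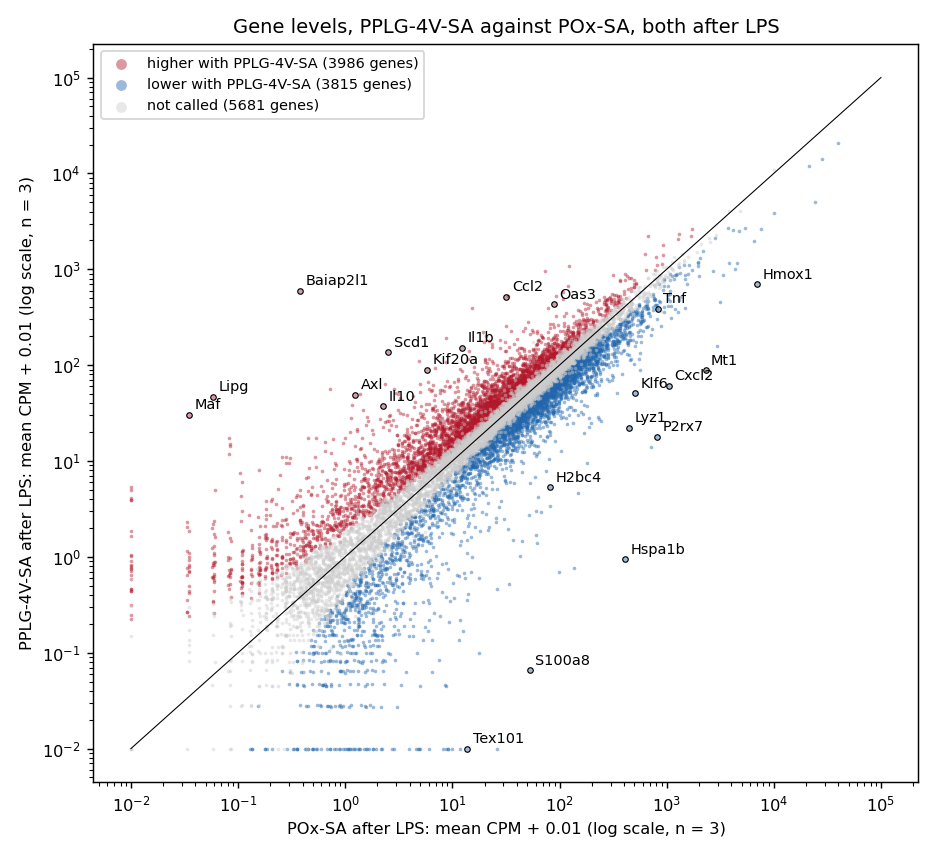
Mean CPM plus 0.01 with PPLG-4V-SA (vertical axis, log scale) against POx-SA (horizontal axis, log scale) for 13482 tested genes, each the mean of 3 libraries. Red points, 3986 genes, were called higher and blue points, 3815 genes, called lower with PPLG-4V-SA; points along the bottom and left edges are genes near 0 in 1 of the groups.

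The PPLG-4V-SA libraries lay close to those of PPLG-SA in the same fit. PPLG-4V-SA against PPLG-SA gave 223 called genes (1.65%), 145 higher (1.08%) and 78 lower (0.579%). Against PPLG-2V-SA, 1617 genes (12.0%) were called, 1015 higher (7.53%) and 602 lower (4.47%). Against LPS alone, PPLG-4V-SA had 7426 called genes (55.1%), 3775 higher (28.0%) and 3651 lower (27.1%), and POx-SA had 6239 (46.3%), 2992 higher (22.2%) and 3247 lower (24.1%). In the 6 libraries of POx-SA and LPS alone, the POx-SA counts were 2625 higher and 2664 lower with a replicate block, against 1338 and 1683 without it. That block does not stand for a known pairing. POx-SA replicates 1 and 2 correlated in their deviations at 0.166 and 0.164 with the same-numbered LPS libraries. With LPS replicates 2 and 1 in turn they correlated at 0.492 and 0.477, and replicate 3 alone matched its own number best. These comparisons share libraries, and they also share an estimate of the spread to which the looser POx-SA and LPS groups contribute. The contrast of PPLG-4V-SA with POx-SA uses that estimate too, and there the tighter PPLG groups contribute to the spread assumed for POx-SA. In the 6 libraries of these 2 polymers alone, without a replicate block, 3215 genes were called higher and 3103 lower. Without POx-SA replicate 3 and LPS replicate 3, PPLG-4V-SA against PPLG-SA gave 672 genes higher and 783 lower in place of 145 and 78. Leaving out PPLG-4V-SA replicates 1, 2 or 3 left 15, 57 or 9 higher and 3, 33 or 2 lower, while leaving out POx-SA replicates 1, 2 or 3 gave 349, 371 or 202 higher and 216, 233 or 168 lower. Il1b, Il6, Il10 and Ccl5 were higher with PPLG-4V-SA than with PPLG-2V-SA as well, by called log2 fold changes of 2.41, 2.89, 2.84 and 2.78. Against PPLG-SA, 0 of 24 tested inflammatory cytokine genes were called in either direction. Of 13 tested chemokine genes, 1 was called higher and 0 lower than with PPLG-SA. The 4 genes, and the fits without single libraries, were chosen after seeing the data.

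Cytokine genes moved in both directions, with interleukin-1, interleukin-6 and interleukin-10 genes higher and Tnf lower with PPLG-4V-SA. Of the inflammatory cytokine genes, 13 of 24 tested members rose, 5 fell and 6 did not pass the test, and their median log2 fold change was 0.69. That median was 1.11 without POx-SA replicate 3. Il1b, which encodes the pyrogenic cytokine interleukin-1 beta, had 169, 130.2 and 155 CPM with PPLG-4V-SA, against 16.3, 7.03 and 13.6 CPM with POx-SA. All 3 PPLG-4V-SA values were far above all 3 POx-SA values (log2 change 3.61 ± 0.22, adjusted p = 4.86e-10), whereas LPS alone, at 17.6 ± 0.981 CPM, was near POx-SA. Il6, the inducer of the acute phase response, had 67.4, 57.4 and 59.1 CPM with PPLG-4V-SA, against 9.73, 4.38 and 5.71 CPM with POx-SA (log2 change 3.21 ± 0.23, adjusted p = 4e-09). Il10, which limits macrophage activation, had 40.4, 36.0 and 35.7 CPM with PPLG-4V-SA, against 3.34, 1.36 and 2.04 CPM with POx-SA (log2 change 4.05 ± 0.23, adjusted p = 1.99e-10). Here the polymers lay on the same side of LPS alone, which averaged 142 ± 37.2 CPM, with POx-SA the lower. Csf1, the growth factor of macrophages, averaged 21.7 ± 1.74 CPM with PPLG-4V-SA and 1.27 ± 0.438 CPM with POx-SA (log2 change 4.08 ± 0.21, adjusted p = 5.34e-11). Il33, an alarmin of the interleukin-1 family, averaged 52.8 ± 7.83 CPM with PPLG-4V-SA and 4.98 ± 1.34 CPM with POx-SA (log2 change 3.40 ± 0.19, adjusted p = 1.53e-10), both below LPS alone at 139 ± 11.5 CPM.

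Tnf, the cytokine tumour necrosis factor, had 414, 371 and 382 CPM with PPLG-4V-SA, against 752, 790.0 and 928 CPM with POx-SA. The groups did not overlap, and Tnf fell to 0.473 times its POx-SA level (log2 change -1.08 ± 0.12, adjusted p = 4.4e-07), while POx-SA was near LPS alone at 839 ± 138 CPM. Osm, oncostatin M, averaged 24.1 ± 2.30 CPM with PPLG-4V-SA and 89.7 ± 7.29 CPM with POx-SA (log2 change -1.90 ± 0.11, adjusted p = 3.17e-10). Il12b, the subunit shared by interleukins 12 and 23, was near the floor, with 2 counts over the PPLG-4V-SA libraries and 27 over the POx-SA libraries, a ratio of 18.4 (95% counting interval 4.63 to 159.9) in favour of POx-SA (adjusted p = 0.00268). Ifnb1, interferon-beta, was low in both groups at 0.559, 0.756 and 0.568 CPM in the PPLG-4V-SA libraries and 0.297, 0.227 and 1.34 CPM in the POx-SA libraries, and its difference was not detectable at this depth (95% interval of the log2 fold change -1.14 to 1.13). Il1rn, the natural antagonist of the interleukin-1 receptor, rose with PPLG-4V-SA and averaged 857 ± 68.3 CPM with PPLG-4V-SA and 425 ± 64.9 CPM with POx-SA (log2 change 1.01 ± 0.12, adjusted p = 1.09e-06), below the 1834 ± 145 CPM of LPS alone.

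Chemokine genes moved in both directions. Of these, 6 of 13 tested members rose, 5 fell and 2 did not pass the test, with a median of -0.44. The median was 0.10 with a filter at 1 CPM, -0.035 on FPKM plus 1, -0.17 without PPLG-4V-SA replicate 1, -0.71 without PPLG-4V-SA replicate 2 and -0.29 without PPLG-4V-SA replicate 3. Ccl2, which draws monocytes, had 553, 470.3 and 534 CPM with PPLG-4V-SA, against 31.8, 25.7 and 38.1 CPM with POx-SA (log2 change 4.02 ± 0.15, adjusted p = 7.54e-13). Ccl22, a ligand of the lymphocyte receptor CCR4, had 115, 95.8 and 122 CPM with PPLG-4V-SA, against 6.01, 2.95 and 5.78 CPM with POx-SA (log2 change 4.49 ± 0.22, adjusted p = 2.93e-11). Ccl5, an attractant of T cells and monocytes, averaged 178 ± 6.75 CPM with PPLG-4V-SA and 21.9 ± 3.29 CPM with POx-SA (log2 change 3.02 ± 0.15, adjusted p = 3.33e-11). Cxcl10, an interferon-induced attractant of T cells, averaged 31.5 ± 4.11 CPM with PPLG-4V-SA and 5.03 ± 1.79 CPM with POx-SA (log2 change 2.65 ± 0.23, adjusted p = 3.59e-08). Each of these was higher in every PPLG-4V-SA library than in any POx-SA library. The neutrophil attractants Cxcl2 and Cxcl3 fell. Cxcl2 had 61.3, 55.9 and 65.2 CPM with PPLG-4V-SA, against 1003, 1015 and 1147 CPM with POx-SA (log2 change -4.12 ± 0.14, adjusted p = 4.96e-13), and its close relative Cxcl3 had 2.18, 2.21 and 3.82 CPM with PPLG-4V-SA, against 56.1, 61.5 and 39.6 CPM with POx-SA (log2 change -4.25 ± 0.20, adjusted p = 1.84e-11). The POx-SA level of Cxcl2 was near LPS alone, at 911 ± 162 CPM, and only the PPLG-4V-SA level of the 2 polymers was far below it. Ccl3, a macrophage inflammatory protein, averaged 2699 ± 188 CPM with PPLG-4V-SA and 5383 ± 1336 CPM with POx-SA (log2 change -0.996 ± 0.16, adjusted p = 4.84e-05).

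The panel of 22 activation genes comprised cytokines, chemokines, effector enzymes, Siglecs and feedback inhibitors, and 9 of its members rose, 8 fell and 5 did not pass the test. Nos2, inducible nitric oxide synthase, had 344, 309.8 and 334 CPM with PPLG-4V-SA, against 416, 708 and 554 CPM with POx-SA (log2 change -0.76 ± 0.14, adjusted p = 0.000186). Ptgs2, the prostaglandin-forming cyclooxygenase 2, had 878, 816 and 855 CPM with PPLG-4V-SA, against 2657, 2094 and 1264 CPM with POx-SA (log2 change -1.24 ± 0.23, adjusted p = 0.000219). For both enzymes the groups did not overlap, and LPS alone was above both polymers at 1254 ± 102 CPM for Nos2 and 7247 ± 2535 CPM for Ptgs2. Socs3, a feedback inhibitor of interleukin-6 signalling, had 375, 327 and 364 CPM with PPLG-4V-SA, against 380.3, 308 and 354 CPM with POx-SA, an overlap of the groups, and the 95% interval of its log2 fold change was -0.17 to 0.23. LPS alone averaged 2825 ± 80.5 CPM for this gene. Nfkbia, the inhibitor of NF-kB, had 313, 319 and 333 CPM with PPLG-4V-SA, against 318, 236 and 279 CPM with POx-SA, again overlapping (95% interval -0.01 to 0.44). Nfkbia was called higher with plain library totals, on FPKM plus 1 and plus 0.1 and without POx-SA replicate 1, 4 of 17 alternatives, and Socs3 in the first 3 of these. Arg1, a marker of alternative activation, had 0 counts with PPLG-4V-SA and 5 with POx-SA (adjusted p = 0.0254, lost in 7 alternatives). It was at least 2.27-fold lower if PPLG-4V-SA is set at 3 counts and the 5 POx-SA counts are taken as exact. Mrc1, another such marker, had 1 count with PPLG-4V-SA and 4 with POx-SA and was not called.

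**Figure D2:**
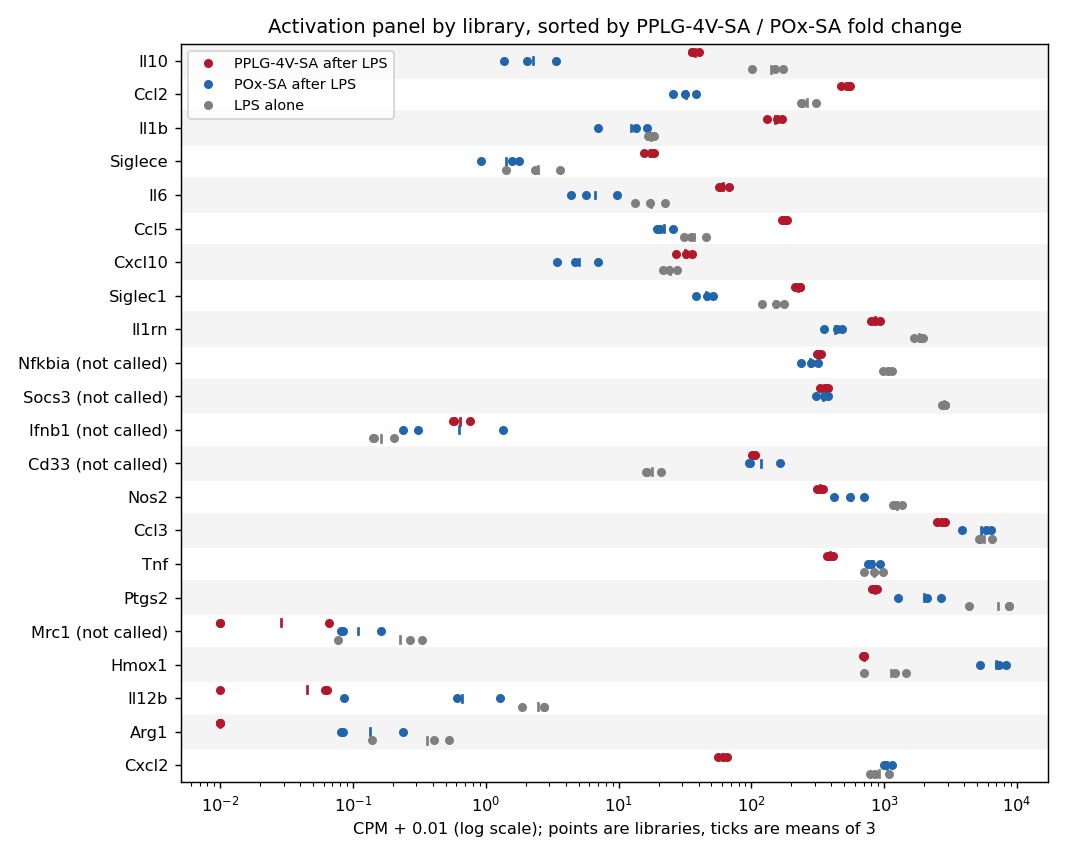
CPM plus 0.01 (log scale) of the 22 panel genes in each library, with PPLG-4V-SA in red, POx-SA in blue and LPS alone in grey; points are libraries and ticks are means of 3. Genes run from the highest to the lowest PPLG-4V-SA over POx-SA fold change, so Il10, Ccl2, Il1b and Siglece stand at the top and Cxcl2 at the bottom.

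In the receptor complex for LPS, Tlr4 and Ly96 did not pass the test and Cd14 fell. Tlr4 had 46.3, 40.8 and 43.1 CPM with PPLG-4V-SA, against 56.3, 48.3 and 26.2 CPM with POx-SA, which overlap (95% interval of the log2 fold change -0.53 to 0.52), and its partner Ly96 had 12.3, 11.6 and 11.5 CPM with PPLG-4V-SA, against 11.5, 12.1 and 18.4 CPM with POx-SA (95% interval -0.63 to 0.13). Cd14, which hands LPS to the receptor, was lower in each PPLG-4V-SA library, at 904, 805 and 875 CPM with PPLG-4V-SA, against 1619.6, 1162 and 1625 CPM with POx-SA (log2 change -0.77 ± 0.12, adjusted p = 4.56e-05). Tlr2, a receptor of bacterial lipoproteins, rose and averaged 125 ± 10.8 CPM with PPLG-4V-SA and 51.7 ± 0.354 CPM with POx-SA (log2 change 1.27 ± 0.09, adjusted p = 4.66e-09). Tlr3, a receptor of viral RNA, averaged 6.397 ± 0.629 CPM with PPLG-4V-SA and 0.661 ± 0.466 CPM with POx-SA (log2 change 3.26 ± 0.37, adjusted p = 8.27e-07). Ikbke, a kinase that activates interferon regulatory factors, averaged 150.4 ± 11.8 CPM with PPLG-4V-SA and 41.7 ± 10.8 CPM with POx-SA (log2 change 1.85 ± 0.14, adjusted p = 7.78e-09). In the whole list 8 of 29 tested members rose, 7 fell and 14 did not pass the test, a median of 0.10, but with plain library totals 13 rose and 1 fell, so the balance rests on the scaling. Without PPLG-4V-SA replicate 1 the members that fell numbered 4. The list median was 0.051 with size factors of DESeq2, 0.043 with a filter at 1 CPM, 0.35 on FPKM plus 1, 0.047 without PPLG-4V-SA replicate 3, 0.0083 without POx-SA replicate 2 and 0.022 without POx-SA replicate 3.

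NF-kB genes were mixed too: 12 of 29 tested members rose, 10 fell and 7 did not pass the test, with a median of 0.17, and 14 and 5 with plain library totals. The median was 0.11 without PPLG-4V-SA replicate 2, -0.019 without POx-SA replicate 2 and 0.013 without POx-SA replicate 3. The precursor subunits rose, Nfkb2 averaging 167 ± 6.36 CPM with PPLG-4V-SA and 61.3 ± 3.34 CPM with POx-SA (log2 change 1.45 ± 0.08, adjusted p = 2.29e-10). Nfkb1 averaged 322 ± 3.53 CPM with PPLG-4V-SA and 135 ± 8.76 CPM with POx-SA (log2 change 1.26 ± 0.09, adjusted p = 1.64e-09). Malt1, a protease of the NF-kB pathway, averaged 177 ± 9.94 CPM with PPLG-4V-SA and 63.3 ± 9.28 CPM with POx-SA (log2 change 1.48 ± 0.12, adjusted p = 1.41e-08). Nfkbid, a nuclear inhibitor of the family, had 18.7, 21.8 and 21.8 CPM with PPLG-4V-SA, against 65.2, 89.2 and 82.4 CPM with POx-SA, with no overlap (log2 change -1.93 ± 0.12, adjusted p = 6.29e-10).

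Negative regulators of Toll-like receptor signalling were mostly lower: 6 of 25 tested members rose, 15 fell and 4 did not pass the test, with a median of -0.60, or 8 and 12 with plain library totals. Spry2, which restrains growth factor signalling to MAP kinases, had 0 counts in all PPLG-4V-SA libraries and 8.61, 8.77 and 9.94 CPM with POx-SA, at least 169.7-fold lower if PPLG-4V-SA is set at 3 counts in all (adjusted p = 3.06e-09). Dusp4, a MAP kinase phosphatase, had 243, 257 and 259 CPM with PPLG-4V-SA, against 635, 1076 and 935 CPM with POx-SA (log2 change -1.80 ± 0.14, adjusted p = 7.48e-09). Tnfrsf1b, a receptor of tumour necrosis factor that is also shed as a decoy, had 612, 532 and 612 CPM with PPLG-4V-SA, against 121, 89.3 and 115 CPM with POx-SA (log2 change 2.43 ± 0.12, adjusted p = 2.09e-11). LPS alone, at 679.6 ± 57.3 CPM, was near PPLG-4V-SA. Sigirr, an inhibitory relative of the interleukin-1 receptor, averaged 11.3 ± 0.621 CPM with PPLG-4V-SA and 3.18 ± 0.310 CPM with POx-SA (log2 change 1.82 ± 0.15, adjusted p = 2.16e-08).

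Of the immediate-early factors, 7 of 22 tested members rose, 11 fell and 4 did not pass the test, with a median of -0.57, or 8 and 9 with plain library totals. This median was -0.16 on FPKM plus 1 and -0.34 without POx-SA replicate 1. Klf6, a zinc finger factor, had 49.9, 52.8 and 50.4 CPM with PPLG-4V-SA, against 486, 577 and 449 CPM with POx-SA (log2 change -3.30 ± 0.12, adjusted p = 5.92e-13), while POx-SA and LPS alone, at 466 ± 54.1 CPM, were near each other. The AP-1 subunits Jun and Fosl2 fell by 2.11 each on the log2 scale, Jun averaging 51.5 ± 6.45 CPM with PPLG-4V-SA and 222 ± 34.3 CPM with POx-SA (adjusted p = 8.88e-10) and Fosl2 49.2 ± 2.26 CPM with PPLG-4V-SA and 212 ± 30.5 CPM with POx-SA (adjusted p = 2.9e-10). Ier3, an early response gene of NF-kB, averaged 100.1 ± 4.55 CPM with PPLG-4V-SA and 344 ± 53.7 CPM with POx-SA (log2 change -1.78 ± 0.12, adjusted p = 9.02e-10).

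Effectors of classical activation also split: 14 of 30 tested members rose, 11 fell and 5 did not pass the test, with a median of 0.29, while 15 rose and 7 fell on FPKM plus 1. The list median was 0.072 without PPLG-4V-SA replicate 3 and 0.10 without POx-SA replicate 2. Hdc, which makes histamine, had 58.5, 55.3 and 54.3 CPM with PPLG-4V-SA, against 1.11, 0.680 and 0.353 CPM with POx-SA (log2 change 6.28 ± 0.24, adjusted p = 8.68e-13). Its POx-SA level was near LPS alone, at 1.03 ± 0.205 CPM, and the PPLG-4V-SA libraries stood far above both. C3, the central complement component, averaged 19.0 ± 1.16 CPM with PPLG-4V-SA and 1.79 ± 0.300 CPM with POx-SA (log2 change 3.40 ± 0.16, adjusted p = 1.1e-11). Marcks, an actin-binding substrate of protein kinase C, averaged 50.7 ± 1.07 CPM with PPLG-4V-SA and 2.92 ± 0.884 CPM with POx-SA (log2 change 4.12 ± 0.19, adjusted p = 1.67e-11). For Marcks it was POx-SA that stood apart, since LPS alone averaged 55.3 ± 12.5 CPM. Slc11a1, a metal pump of the phagosome, had 71.7, 70.4 and 66.1 CPM with PPLG-4V-SA, against 355, 251 and 331 CPM with POx-SA (log2 change -2.17 ± 0.11, adjusted p = 6.71e-11). Of the markers of alternative activation, 2 of 13 tested members rose, 7 fell and 4 did not pass the test, a median of -0.71. With plain library totals 3 rose and 6 fell, and on FPKM plus 1, 4 rose and 5 fell. The median was -1.31 with no filter on low counts and -0.11 on FPKM plus 1. Il10ra, the receptor of interleukin-10, had 26.1, 22.7 and 25.1 CPM with PPLG-4V-SA, against 81.6, 41.6 and 58.2 CPM with POx-SA (log2 change -1.29 ± 0.18, adjusted p = 6.84e-06), opposite in direction to Il10, and Vegfa, the vascular growth factor, averaged 73.9 ± 5.83 CPM with PPLG-4V-SA and 118 ± 10.2 CPM with POx-SA (log2 change -0.68 ± 0.09, adjusted p = 3.74e-06). Irf4, a transcription factor of alternative activation, averaged 12.2 ± 2.33 CPM with PPLG-4V-SA and 3.38 ± 0.931 CPM with POx-SA (log2 change 1.85 ± 0.21, adjusted p = 9.24e-07). Chil6, a chitinase-like protein, averaged 0.641 ± 0.569 CPM with PPLG-4V-SA and 11.1 ± 5.33 CPM with POx-SA (log2 change -4.09 ± 0.59, adjusted p = 1.28e-05).

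Nearly all interferon-stimulated genes rose. Of 46 tested members 45 rose with PPLG-4V-SA, 0 fell, and Ifi47 alone did not pass the test, with a median log2 fold change of 2.14. The count was 44 or 45 with any 1 library of the 2 polymers left out, with plain library totals or on FPKM, and 42 in a test against a fold of 1.5, against 29.6% of all tested genes higher. Summed over the list, the level was 5651 to 5873 CPM of plain totals with PPLG-4V-SA and 1528 to 1652 CPM with POx-SA. Oas3, which makes the activator of the antiviral nuclease RNase L, had 422, 420.3 and 448 CPM with PPLG-4V-SA, against 88.6, 92.3 and 87.4 CPM with POx-SA (log2 change 2.27 ± 0.08, adjusted p = 6.62e-13). Oas2, of the same family, averaged 166 ± 6.47 CPM with PPLG-4V-SA and 23.6 ± 3.48 CPM with POx-SA (log2 change 2.81 ± 0.11, adjusted p = 1.1e-12). Ifi44, an antiviral protein, had 267, 249.6 and 253 CPM with PPLG-4V-SA, against 33.7, 31.1 and 29.5 CPM with POx-SA (log2 change 3.03 ± 0.11, adjusted p = 7.9e-13). Dhx58, a regulator of cytosolic RNA sensing, had 71.6, 67.1 and 73.8 CPM with PPLG-4V-SA, against 9.73, 11.6 and 12.8 CPM with POx-SA (log2 change 2.64 ± 0.10, adjusted p = 1.1e-12). LPS alone fell between the polymers for these 4 genes, with averages of 166 ± 3.82 CPM, 119 ± 5.11 CPM, 103 ± 15.0 CPM and 37.1 ± 1.65 CPM.

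Antigen presentation genes rose in part. In the class I list 10 of 23 tested members rose, 3 fell and 10 did not pass the test, with a median of 0.34, while 17 rose and 2 fell with plain library totals. Their median was 0.20 without POx-SA replicate 1 and 0.67 without POx-SA replicate 3. H2-T24, a non-classical class I gene, had 194, 186 and 201 CPM with PPLG-4V-SA, against 7.05, 6.95 and 12.3 CPM with POx-SA (log2 change 4.46 ± 0.19, adjusted p = 3.67e-12). H2-T22 averaged 104 ± 1.40 CPM with PPLG-4V-SA and 32.4 ± 3.81 CPM with POx-SA (log2 change 1.68 ± 0.12, adjusted p = 3.57e-09). Tap1, a peptide transporter, averaged 91.0 ± 5.47 CPM with PPLG-4V-SA and 42.4 ± 7.17 CPM with POx-SA (log2 change 1.10 ± 0.13, adjusted p = 1.46e-06). Tapbp, which couples class I molecules to that transporter, averaged 292 ± 9.31 CPM with PPLG-4V-SA and 163 ± 20.9 CPM with POx-SA (log2 change 0.84 ± 0.09, adjusted p = 7.06e-07). In the class II list 5 of 9 tested members rose, 2 fell and 2 did not pass the test, with a median of 0.82, while 7 rose and 1 fell with plain library totals. The median was 0.48 with a filter at 1 CPM. The peptide-binding chains were low throughout: H2-Eb1 had 5.59, 4.75 and 4.39 CPM with PPLG-4V-SA, against 0.445, 0.454 and 0.423 CPM with POx-SA (log2 change 3.45 ± 0.38, adjusted p = 6.45e-07). H2-Ab1 had 2.57, 3.40 and 2.22 CPM with PPLG-4V-SA, against 0.0742, 0.302 and 0.141 CPM with POx-SA (log2 change 3.93 ± 0.50, adjusted p = 3.45e-06). H2-Aa had 24 counts with PPLG-4V-SA and 0 with POx-SA, at least 5.86-fold higher. H2-Ob, a chain of an inhibitor of class II peptide loading, averaged 8.00 ± 1.32 CPM with PPLG-4V-SA and 2.64 ± 0.231 CPM with POx-SA (log2 change 1.59 ± 0.20, adjusted p = 2.82e-06). Cd74, the invariant chain, and Ifi30, a lysosomal thiol reductase, were named after their values were seen and fell by 0.62 and 0.60 on the log2 scale. Without POx-SA replicate 3 only 1 member of the list fell.

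Siglecs detected in these cells were mainly Siglec1, Cd33 and Siglece. Siglece, an inhibitory Siglec of mouse myeloid cells, had 15.6, 17.6 and 18.3 CPM with PPLG-4V-SA, against 1.56, 0.907 and 1.76 CPM with POx-SA, with every PPLG-4V-SA value above every POx-SA value (log2 change 3.59 ± 0.25, adjusted p = 2.08e-09). Siglec1, the adhesion receptor sialoadhesin and itself interferon-induced, had 233, 212 and 231 CPM with PPLG-4V-SA, against 46.3, 51.3 and 37.9 CPM with POx-SA (log2 change 2.32 ± 0.14, adjusted p = 3.22e-10). LPS alone averaged 2.45 ± 1.09 CPM for Siglece, near POx-SA, and 149 ± 28.1 CPM for Siglec1, between the polymers. Cd33 had 106, 103 and 101 CPM with PPLG-4V-SA, against 96.0, 163 and 97.4 CPM with POx-SA, an overlap with a 95% interval of -0.53 to 0.12 for the log2 fold change, and both polymers were above LPS alone at 17.8 ± 2.56 CPM. It was called lower without POx-SA replicate 1 (log2 change -0.39) and without POx-SA replicate 3 and LPS replicate 3 (-0.37). Ptpn6, the phosphatase SHP-1, averaged 475 ± 22.4 CPM with PPLG-4V-SA and 236 ± 37.6 CPM with POx-SA (log2 change 1.01 ± 0.12, adjusted p = 2.04e-06). Inpp5d, the lipid phosphatase SHIP-1, averaged 140.3 ± 6.12 CPM with PPLG-4V-SA and 234 ± 25.8 CPM with POx-SA (log2 change -0.74 ± 0.10, adjusted p = 6.41e-06). Across the list 5 of 9 tested members rose, 3 fell and 1 did not pass the test, with a median of 0.33.

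Genes that make, transfer or remove sialic acid moved both ways: 10 of 25 tested members rose, 11 fell and 4 did not pass the test, with a median of -0.32, or 10 and 5 with plain library totals. The median was -0.21 with a replicate block in the 6 libraries. Npl, the lyase that breaks sialic acid down, had 29.6, 28.4 and 24.4 CPM with PPLG-4V-SA, against 1.26, 1.89 and 3.10 CPM with POx-SA (log2 change 3.71 ± 0.25, adjusted p = 1.22e-09). St6gal1, which adds sialic acid in alpha-2,6 linkage to galactose, was almost absent with PPLG-4V-SA at 0.168, 0.0540 and 0 CPM in the PPLG-4V-SA libraries and 6.46, 8.01 and 8.04 CPM in the POx-SA libraries (log2 change -6.55 ± 0.51, adjusted p = 9.2e-09), while LPS alone averaged 13.2 ± 1.36 CPM. Slc35a1, the Golgi transporter of CMP-sialic acid, averaged 32.8 ± 0.907 CPM with PPLG-4V-SA and 12.6 ± 1.02 CPM with POx-SA (log2 change 1.38 ± 0.11, adjusted p = 1.69e-08). St3gal2, which forms alpha-2,3 linkages, averaged 19.3 ± 1.33 CPM with PPLG-4V-SA and 9.93 ± 0.434 CPM with POx-SA (log2 change 0.96 ± 0.11, adjusted p = 1.75e-06). St6gal1 and St3gal2 thus went in opposite directions, and other transferases of the 2 linkages are not described here.

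Targets of NRF2, the transcription factor that answers oxidative and electrophilic stress, were lower with PPLG-4V-SA. Of these, 3 of 27 tested members rose, 20 fell and 4 did not pass the test, with a median of -1.25, and 4 rose and 17 fell with plain library totals. Hmox1, the heme-degrading heme oxygenase 1, had 707, 705 and 689.6 CPM with PPLG-4V-SA, against 5278, 7324 and 8298 CPM with POx-SA (log2 change -3.31 ± 0.22, adjusted p = 8.95e-10). LPS alone averaged 1126 ± 383 CPM, so that the POx-SA libraries were the ones that stood apart. Prdx1, a peroxidase, had 489, 441 and 429 CPM with PPLG-4V-SA, against 3869, 2209 and 3418 CPM with POx-SA (log2 change -2.81 ± 0.18, adjusted p = 6.2e-10), and catalase, Cat, had 62.4, 56.7 and 56.8 CPM with PPLG-4V-SA, against 243, 195 and 184 CPM with POx-SA (log2 change -1.82 ± 0.10, adjusted p = 1.42e-10). LPS alone was again near PPLG-4V-SA, with 479 ± 89.5 CPM for Prdx1 and 63.0 ± 4.17 CPM for Cat. Blvrb, a biliverdin reductase, averaged 32.6 ± 2.47 CPM with PPLG-4V-SA and 158 ± 26.1 CPM with POx-SA (log2 change -2.28 ± 0.16, adjusted p = 1.89e-09). Nqo1, a quinone reductase and classical NRF2 target that was named after its values were seen, had 0 counts with PPLG-4V-SA and 90 with POx-SA, at least 40.9-fold lower. The 3 members that rose, Ugdh, Gstp1 and Abcc1, also named afterwards, did so by 0.49, 0.46 and 0.31 on the log2 scale.

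Iron handling genes, which include Hmox1 and Slc11a1, were mixed: 7 of 20 tested members rose, 9 fell and 4 did not pass the test, with a median of -0.36, while 8 rose and 8 fell with plain library totals and 8 rose and 7 fell on FPKM plus 1. The median was 0.019 on FPKM plus 1. Cp, the ferroxidase ceruloplasmin, had 171, 176 and 169.6 CPM with PPLG-4V-SA, against 16.7, 25.02 and 17.1 CPM with POx-SA (log2 change 3.14 ± 0.18, adjusted p = 1.88e-10). Lcn2, which captures bacterial iron chelators, averaged 211 ± 14.7 CPM with PPLG-4V-SA and 53.2 ± 7.79 CPM with POx-SA (log2 change 1.99 ± 0.13, adjusted p = 6.25e-10). Both polymers left Lcn2 far below LPS alone at 1238 ± 159 CPM.

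The metallothioneins, which bind zinc and copper, were sharply lower. Mt1 had 84.3, 103 and 77.3 CPM with PPLG-4V-SA, against 1549, 2335 and 3047 CPM with POx-SA (log2 change -4.71 ± 0.32, adjusted p = 1.6e-09). Mt2 had 153, 170.5 and 148 CPM with PPLG-4V-SA, against 2158, 3140.3 and 3508 CPM with POx-SA (log2 change -4.22 ± 0.24, adjusted p = 2.25e-10), with wide gaps between the groups. Slc39a4, a zinc importer, averaged 2.29 ± 0.630 CPM with PPLG-4V-SA and 25.5 ± 4.42 CPM with POx-SA (log2 change -3.47 ± 0.22, adjusted p = 8.7e-10). Mtf1, the metal sensor that drives metallothionein genes, averaged 34.4 ± 0.712 CPM with PPLG-4V-SA and 58.5 ± 4.97 CPM with POx-SA (log2 change -0.77 ± 0.10, adjusted p = 5.26e-06). Over the list 2 of 15 tested members rose, 7 fell and 6 did not pass the test, with a median of -0.24, while 3 rose and 5 fell with plain library totals. Without POx-SA replicate 1 or 3, 1 member rose. The list median was 0.0045 with plain library totals, 0.18 on FPKM plus 1 and -0.45 without POx-SA replicate 3.

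Of the cytosolic heat shock chaperones, 4 of 25 tested members rose, 14 fell and 7 did not pass the test, with a median of -0.38, or 7 and 11 with plain library totals. In CPM of plain totals, without TMM, their summed level was 9177 to 9395 with PPLG-4V-SA and 7131 to 8896 with POx-SA. TMM factors were 1.105 to 1.115 with PPLG-4V-SA and 0.885 to 1.005 with POx-SA. The sum is therefore not on the scale of the 4 and 14 calls, and its direction depends on the scaling. Hspa1b, an inducible Hsp70, had 1.06, 1.24 and 0.516 CPM with PPLG-4V-SA, against 659, 233 and 343 CPM with POx-SA (log2 change -8.77 ± 0.52, adjusted p = 3.31e-10). Its near-identical neighbour Hspa1a had 0 counts in every PPLG-4V-SA library and 22.5, 2.04 and 10.7 CPM with POx-SA, at least 219-fold lower (adjusted p = 9.83e-06). Both genes were low with LPS alone, Hspa1b averaging 2.48 ± 1.36 CPM, while untreated cells averaged 234 ± 9.70 CPM of Hspa1b, and among the POx-SA libraries both were highest in replicate 1. Dnajb1, an Hsp40 partner of Hsp70, averaged 18.6 ± 0.940 CPM with PPLG-4V-SA and 82.1 ± 26.8 CPM with POx-SA (log2 change -2.14 ± 0.19, adjusted p = 5.22e-08). Hspa4l averaged 174 ± 4.31 CPM with PPLG-4V-SA and 440.2 ± 111 CPM with POx-SA (log2 change -1.34 ± 0.17, adjusted p = 2.92e-06). Bag3, a cochaperone, averaged 27.6 ± 1.54 CPM with PPLG-4V-SA and 57.6 ± 4.89 CPM with POx-SA (log2 change -1.06 ± 0.11, adjusted p = 3.13e-07). The risen members, named after their values were seen, were Hspd1, Hsp90ab1, Stip1 and Tcp1, by 0.92, 0.84, 0.80 and 0.54 on the log2 scale.

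Stress genes of the endoplasmic reticulum and of the integrated stress response fell as well: 1 of 31 tested members rose, 22 fell and 8 did not pass the test, with a median of -0.63, or 5 and 13 with plain library totals. Dnajb9, a chaperone cofactor of the endoplasmic reticulum, had 16.7, 19.0 and 17.4 CPM with PPLG-4V-SA, against 60.4, 94.0 and 77.0 CPM with POx-SA (log2 change -2.12 ± 0.14, adjusted p = 1.06e-09). Cebpb, a transcription factor of macrophage activation and stress, had 88.5, 74.3 and 80.6 CPM with PPLG-4V-SA, against 435, 397 and 324 CPM with POx-SA (log2 change -2.25 ± 0.15, adjusted p = 1.49e-09). Ppp1r15a, which ends the block of translation, averaged 63.1 ± 6.07 CPM with PPLG-4V-SA and 166 ± 18.2 CPM with POx-SA (log2 change -1.39 ± 0.12, adjusted p = 2.99e-08). Syvn1, a ubiquitin ligase of the endoplasmic reticulum, averaged 49.0 ± 1.66 CPM with PPLG-4V-SA and 94.9 ± 3.64 CPM with POx-SA (log2 change -0.95 ± 0.08, adjusted p = 3.54e-08). Sel1l, a partner of that ligase named after its values were seen, was the member that rose, by 0.61 on the log2 scale. Without POx-SA replicate 2, 2 members rose.

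Amino acid transporters were mostly lower: 4 of 18 tested members rose, 12 fell and 2 did not pass the test, with a median of -0.64. Slc7a11, the cystine importer that feeds glutathione, had 93.9, 86.9 and 89.0 CPM with PPLG-4V-SA, against 609.9, 643 and 422 CPM with POx-SA (log2 change -2.63 ± 0.20, adjusted p = 4.8e-09). Slc36a4 averaged 64.7 ± 2.72 CPM with PPLG-4V-SA and 194 ± 38.4 CPM with POx-SA (log2 change -1.58 ± 0.15, adjusted p = 9.07e-08). Slc7a8, a transporter of neutral amino acids, went up and had 42.9, 43.7 and 44.6 CPM with PPLG-4V-SA, against 6.98, 6.42 and 6.63 CPM with POx-SA (log2 change 2.71 ± 0.11, adjusted p = 3.2e-12). Slc38a7, a glutamine transporter, averaged 60.2 ± 2.29 CPM with PPLG-4V-SA and 109.8 ± 15.8 CPM with POx-SA (log2 change -0.87 ± 0.10, adjusted p = 1.46e-06). Of the proteasome subunits 4 of 36 tested members rose, 23 fell and 9 did not pass the test, with a median of -0.38, but with plain library totals 7 rose and 11 fell and on FPKM plus 1 7 did each, so this balance depends on the scaling. Without POx-SA replicate 3, 7 subunits rose. The list median was -0.60 without POx-SA replicate 2. Psmd11 averaged 219 ± 4.78 CPM with PPLG-4V-SA and 458 ± 45.8 CPM with POx-SA (log2 change -1.06 ± 0.10, adjusted p = 1.35e-07). Psmd8 averaged 301 ± 5.80 CPM with PPLG-4V-SA and 813 ± 172 CPM with POx-SA (log2 change -1.43 ± 0.14, adjusted p = 1.61e-07). Psmb5, a catalytic subunit, averaged 36.5 ± 3.41 CPM with PPLG-4V-SA and 99.7 ± 18.3 CPM with POx-SA (log2 change -1.45 ± 0.15, adjusted p = 2.27e-07). Psmb9, the interferon-inducible catalytic subunit of the immunoproteasome, rose instead, with 19.7, 18.5 and 21.3 CPM with PPLG-4V-SA, against 4.08, 2.80 and 7.40 CPM with POx-SA (log2 change 2.05 ± 0.25, adjusted p = 2.02e-06).

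Genes of cholesterol synthesis and the desaturases Scd1 and Scd2 were higher with PPLG-4V-SA. Of the cholesterol synthesis genes 23 of 24 rose and 0 fell, with a median log2 fold change of 1.48, and Sc5d, named after its values were seen, did not pass the test (95% interval -0.04 to 0.40). The count was 22 or 23 with any 1 library of the 2 polymers left out and 24 with plain library totals. Acat2, which starts the pathway from acetyl-CoA, had 40.3, 36.0 and 35.7 CPM with PPLG-4V-SA, against 6.61, 5.52 and 8.67 CPM with POx-SA (log2 change 2.42 ± 0.14, adjusted p = 2.63e-10). Lss, which closes the sterol rings, averaged 82.5 ± 6.88 CPM with PPLG-4V-SA and 29.1 ± 1.92 CPM with POx-SA (log2 change 1.503 ± 0.09, adjusted p = 4.58e-10). Cyp51, a lanosterol demethylase, averaged 109.6 ± 8.56 CPM with PPLG-4V-SA and 23.4 ± 6.86 CPM with POx-SA (log2 change 2.23 ± 0.15, adjusted p = 1.25e-09). POx-SA was near LPS alone for Lss, at 29.8 ± 1.70 CPM, and for Acat2, at 4.67 ± 0.492 CPM.

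Among targets of LXR, the sterol sensor, and genes of cholesterol efflux, 10 of 15 tested members rose, 2 fell and 3 did not pass the test, with a median of 0.67. This median was 0.44 without POx-SA replicate 1. Scd1, the desaturase that makes oleic acid, had 142, 126 and 139 CPM with PPLG-4V-SA, against 1.04, 4.23 and 2.26 CPM with POx-SA (log2 change 5.76 ± 0.28, adjusted p = 2.45e-11). Scd2 had 1133, 1028 and 1115 CPM with PPLG-4V-SA, against 91.2, 161 and 119 CPM with POx-SA (log2 change 3.14 ± 0.16, adjusted p = 6.62e-11). Mylip, which degrades the LDL receptor, averaged 12.6 ± 1.53 CPM with PPLG-4V-SA and 2.55 ± 0.499 CPM with POx-SA (log2 change 2.31 ± 0.18, adjusted p = 8.51e-09). Apoe, an apolipoprotein that takes up effluxed cholesterol, was lower and averaged 4.31 ± 0.366 CPM with PPLG-4V-SA and 11.8 ± 3.16 CPM with POx-SA (log2 change -1.45 ± 0.20, adjusted p = 6.6e-06).

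Cell cycle genes rose while histone mRNAs fell. Of the genes of DNA replication and S phase, 35 of 40 tested members rose, 2 fell and 3 did not pass the test, with a median of 1.15. Rrm2, a subunit of ribonucleotide reductase, had 106, 96.7 and 97.9 CPM with PPLG-4V-SA, against 24.5, 29.1 and 25.2 CPM with POx-SA (log2 change 1.93 ± 0.10, adjusted p = 5.79e-11). Uhrf1, which copies DNA methylation patterns, had 142, 134 and 145 CPM with PPLG-4V-SA, against 24.1, 37.3 and 31.8 CPM with POx-SA (log2 change 2.17 ± 0.13, adjusted p = 2.26e-10). Mcm10, a replication fork factor, averaged 47.8 ± 1.66 CPM with PPLG-4V-SA and 14.9 ± 2.21 CPM with POx-SA (log2 change 1.68 ± 0.12, adjusted p = 4.4e-09). Rrm1, the partner of Rrm2, averaged 218 ± 17.5 CPM with PPLG-4V-SA and 61.3 ± 15.3 CPM with POx-SA (log2 change 1.83 ± 0.14, adjusted p = 9.11e-09). Gins3 and Cdt1, named after their values were seen, were the members that fell, by 0.60 and 0.48 on the log2 scale, and 4 members fell without POx-SA replicate 1. Of the mitosis and spindle genes 34 of 36 rose and 0 fell, with a median of 1.64, and Bub1b and Mad2l1 did not pass the test. Kif20a, a kinesin of cell division, had 97.6, 83.8 and 87.8 CPM with PPLG-4V-SA, against 4.45, 6.42 and 6.63 CPM with POx-SA (log2 change 3.94 ± 0.14, adjusted p = 5.92e-13). Kif2c, a kinesin of the centromere, had 49.8, 47.8 and 44.0 CPM with PPLG-4V-SA, against 3.64, 4.76 and 4.51 CPM with POx-SA (log2 change 3.45 ± 0.12, adjusted p = 6.62e-13). Espl1, which cuts sister chromatids apart, averaged 90.4 ± 5.36 CPM with PPLG-4V-SA and 18.8 ± 1.78 CPM with POx-SA (log2 change 2.26 ± 0.10, adjusted p = 5.16e-12). Plk1, a mitotic kinase, averaged 60.5 ± 4.99 CPM with PPLG-4V-SA and 9.43 ± 0.645 CPM with POx-SA (log2 change 2.68 ± 0.13, adjusted p = 1.84e-11). LPS alone lay between the polymers for Kif20a and Kif2c, at 20.2 ± 2.57 CPM and 15.2 ± 0.237 CPM.

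Replication-dependent histone mRNAs, which normally end in a stem-loop and carry no poly(A) tail, went the other way: 0 of 33 tested members rose, 22 fell and 11 did not pass the test, with a median of -2.69, or -2.61 with genes at 0 in a group set to their bound. That median was -0.81 on FPKM plus 1. H2bc4 had 6.48, 5.02 and 4.54 CPM with PPLG-4V-SA, against 74.5, 84.7 and 87.1 CPM with POx-SA (log2 change -3.94 ± 0.27, adjusted p = 1.72e-09), and the linker histone H1f2 had 6.03, 5.73 and 5.94 CPM with PPLG-4V-SA, against 78.5, 40.5 and 41.4 CPM with POx-SA (log2 change -3.18 ± 0.23, adjusted p = 2.83e-09). H2bc23 averaged 0.979 ± 0.317 CPM with PPLG-4V-SA and 15.1 ± 2.30 CPM with POx-SA (log2 change -3.93 ± 0.29, adjusted p = 4.66e-09). H4c18 averaged 0.343 ± 0.120 CPM with PPLG-4V-SA and 5.86 ± 1.26 CPM with POx-SA (log2 change -4.07 ± 0.32, adjusted p = 1.05e-08). None of these POx-SA values overlapped a PPLG-4V-SA value. H2bc7, named after its values were seen, had 0 counts with PPLG-4V-SA, but 2 POx-SA libraries were at 0.223 and 0 CPM and replicate 3 at 24.1 CPM, so that library decides its call.

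**Figure D3:**
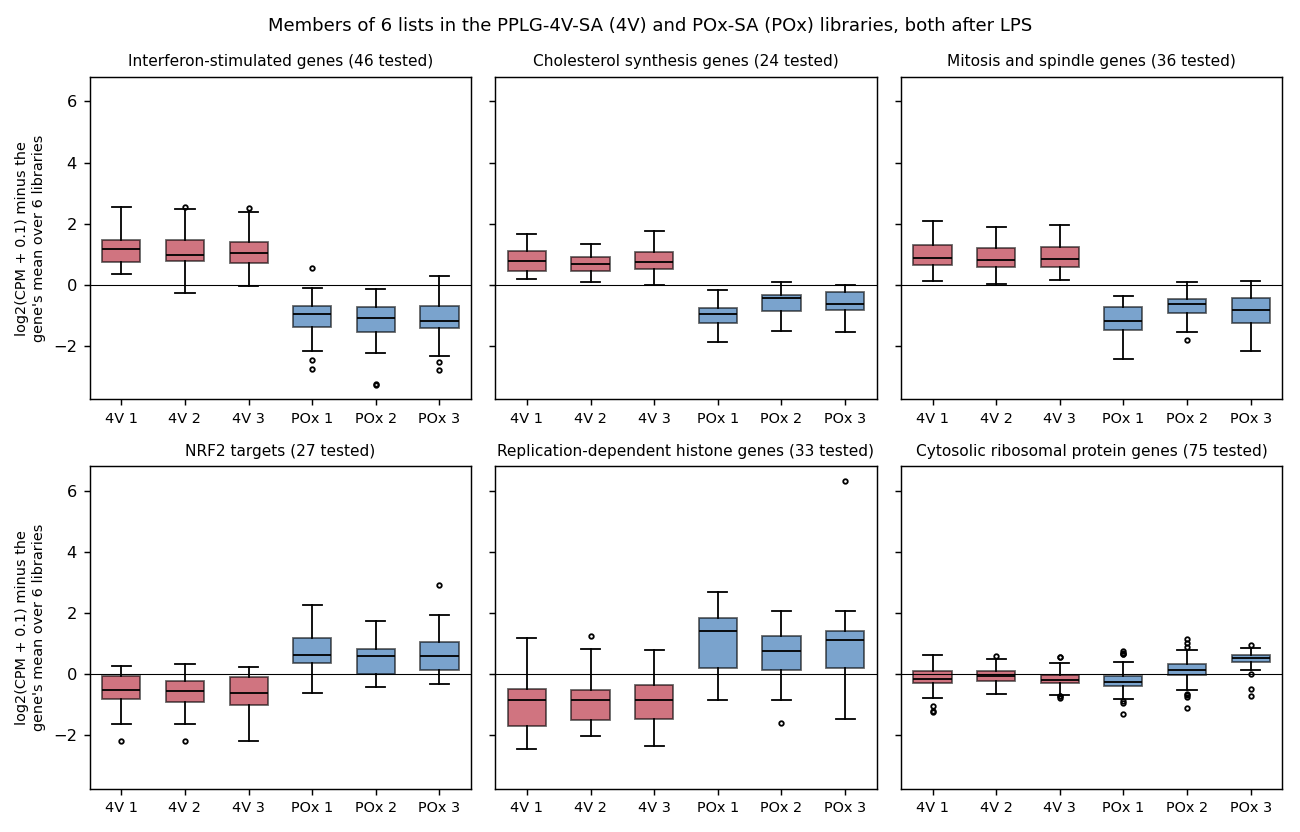
Each box shows log2(CPM + 0.1) minus the gene's mean over 6 libraries (vertical axes) for the tested members of a list in 1 library (horizontal axes), PPLG-4V-SA in red and POx-SA in blue, with quartiles, median, whiskers to 1.5 times the quartile range and single genes beyond. The PPLG-4V-SA medians lie above the POx-SA medians for interferon-stimulated, cholesterol and mitosis genes and below them for NRF2 targets and histones, while for ribosomal protein genes POx-SA replicate 1 sits at the PPLG-4V-SA level and replicate 3 above it.

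Counts for genes of protein synthesis depended on the scaling. Of the cytosolic ribosomal protein genes 4 of 75 tested members rose, 28 fell and 43 did not pass the test, with a median of -0.26, but 11 rose and 15 fell with plain library totals and 16 rose and 4 fell on FPKM plus 1. The number that rose was 0, 1 or 5 without POx-SA replicates 1, 2 or 3, it was 2, 1 or 3 without PPLG-4V-SA replicates 1, 2 or 3, and it was 14 without POx-SA replicate 3 and LPS replicate 3. The number that fell was 42 without POx-SA replicate 1. Their median was 0.01 with plain library totals, 0.13 on FPKM plus 1, -0.48 without POx-SA replicate 1 and -0.069 without POx-SA replicate 3. Rplp2, an acidic protein of the ribosomal stalk, had 231, 268 and 253 CPM with PPLG-4V-SA, against 626, 689.6 and 600.3 CPM with POx-SA (log2 change -1.35 ± 0.14, adjusted p = 2.2e-07). Rps29 had 76.0, 122 and 102 CPM with PPLG-4V-SA, against 297, 386 and 269 CPM with POx-SA (log2 change -1.67 ± 0.17, adjusted p = 3.06e-07). Rps28 averaged 67.9 ± 15.9 CPM with PPLG-4V-SA and 215 ± 22.5 CPM with POx-SA (log2 change -1.67 ± 0.19, adjusted p = 7.24e-07). Rpl38 averaged 91.0 ± 16.8 CPM with PPLG-4V-SA and 253 ± 20.7 CPM with POx-SA (log2 change -1.48 ± 0.15, adjusted p = 3.21e-07). Of the ribosome biogenesis genes 13 of 30 tested members rose, 7 fell and 10 did not pass the test, a median of 0.25, or 20 and 1 with plain library totals, and 4 fell without PPLG-4V-SA replicate 1. Their median was 0.095 without POx-SA replicate 1. Mybbp1a, a nucleolar protein, averaged 386 ± 12.4 CPM with PPLG-4V-SA and 227 ± 17.5 CPM with POx-SA (log2 change 0.77 ± 0.08, adjusted p = 6.11e-07). Ddx21, a nucleolar helicase, averaged 397 ± 13.1 CPM with PPLG-4V-SA and 224 ± 35.3 CPM with POx-SA (log2 change 0.82 ± 0.11, adjusted p = 7.75e-06). Dkc1, which modifies ribosomal RNA, averaged 67.2 ± 3.59 CPM with PPLG-4V-SA and 33.7 ± 7.22 CPM with POx-SA (log2 change 0.99 ± 0.14, adjusted p = 1.06e-05). Rrp12 averaged 45.5 ± 2.26 CPM with PPLG-4V-SA and 66.2 ± 6.05 CPM with POx-SA (log2 change -0.54 ± 0.09, adjusted p = 6.73e-05). Of the aminoacyl-tRNA synthetases, which load amino acids onto tRNAs, 8 of 20 tested members rose, 5 fell and 7 did not pass the test, a median of 0.21, or 12 and 1 with plain library totals. The list median was 0.094 without POx-SA replicate 1. Vars, Dars and Tars rose by 0.65 ± 0.09, 0.66 ± 0.10 and 0.50 ± 0.09 on the log2 scale, and Wars1, for tryptophan, fell (-0.61 ± 0.10, adjusted p = 7.12e-05).

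Of the glycolysis and hypoxia genes 6 of 29 tested members rose, 16 fell and 7 did not pass the test, with a median of -0.41, or 9 and 13 with plain library totals. Ndrg1, a hypoxia-induced gene, had 105, 126 and 116 CPM with PPLG-4V-SA, against 379.7, 595 and 690.5 CPM with POx-SA (log2 change -2.26 ± 0.19, adjusted p = 1.98e-08), and both polymers were below LPS alone at 1847 ± 414 CPM. Bnip3, a mitochondrial receptor of autophagy, had 25.1, 24.04 and 27.6 CPM with PPLG-4V-SA, against 73.8, 88.0 and 86.0 CPM with POx-SA (log2 change -1.69 ± 0.10, adjusted p = 4.31e-10). Hk3, a hexokinase of myeloid cells, averaged 139.6 ± 3.81 CPM with PPLG-4V-SA and 388 ± 28.6 CPM with POx-SA (log2 change -1.47 ± 0.10, adjusted p = 1.03e-09). Pdk1, which keeps pyruvate from mitochondria, was higher at 34.4 ± 2.14 CPM with PPLG-4V-SA and 11.5 ± 2.62 CPM with POx-SA (log2 change 1.58 ± 0.15, adjusted p = 1.07e-07). Of the mitochondrially encoded genes 1 of 13 tested members rose, 8 fell and 4 did not pass the test, with a median of -0.50, while 1 rose and 5 fell with plain library totals and 1 rose and 1 fell on FPKM plus 1. Without PPLG-4V-SA replicate 3, 5 fell, and the member that rose, ND2, was not called without PPLG-4V-SA replicate 1, POx-SA replicate 2 or POx-SA replicate 3. That median was -0.12 on FPKM plus 1 and -0.26 without POx-SA replicate 1. COX1, a core subunit of cytochrome oxidase, had 21479.5, 21876 and 19473 CPM with PPLG-4V-SA, against 42999, 39268 and 36113 CPM with POx-SA (log2 change -0.91 ± 0.13, adjusted p = 8.03e-06). ND6, of complex I, averaged 289 ± 46.6 CPM with PPLG-4V-SA and 596 ± 83.8 CPM with POx-SA (log2 change -1.04 ± 0.14, adjusted p = 7.35e-06). ATP6, of ATP synthase, averaged 2519 ± 224 CPM with PPLG-4V-SA and 4703 ± 1035 CPM with POx-SA (log2 change -0.90 ± 0.16, adjusted p = 0.000104). ATP8 had 40.9, 72.3 and 69.2 CPM with PPLG-4V-SA, against 348, 200.2 and 64.8 CPM with POx-SA, with POx-SA replicate 3 inside the PPLG-4V-SA range (log2 change -1.75 ± 0.43, adjusted p = 0.00229). Of the nuclear genes of the respiratory chain 2 of 38 tested members rose, 10 fell and 26 did not pass the test, a median of -0.15, and 12 rose and 6 fell with plain library totals. Without POx-SA replicate 3, 6 rose and 7 fell, and without POx-SA replicate 1, 20 fell. Their median was 0.11 with plain library totals, 0.23 on FPKM plus 1, -0.36 without POx-SA replicate 1, -0.24 without POx-SA replicate 2 and -0.058 without POx-SA replicate 3. Sdhd, a membrane anchor of complex II, averaged 104 ± 4.56 CPM with PPLG-4V-SA and 258 ± 57.7 CPM with POx-SA (log2 change -1.31 ± 0.15, adjusted p = 8.15e-07). Cox5a, of cytochrome oxidase, averaged 94.3 ± 5.80 CPM with PPLG-4V-SA and 189.8 ± 18.4 CPM with POx-SA (log2 change -1.01 ± 0.11, adjusted p = 8.95e-07). The complex I subunits Ndufa2 and Ndufa1 averaged 31.4 ± 2.43 CPM with PPLG-4V-SA and 80.3 ± 17.0 CPM with POx-SA for Ndufa2 (log2 change -1.35 ± 0.21, adjusted p = 2.93e-05) and 17.1 ± 1.25 CPM with PPLG-4V-SA and 31.9 ± 7.32 CPM with POx-SA for Ndufa1 (log2 change -0.90 ± 0.20, adjusted p = 0.000997).

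Receptors for antibody, complement and dying cells were higher in part: 9 of 19 tested members rose, 3 fell and 7 did not pass the test, with a median of 0.23, while 12 rose and 2 fell on FPKM plus 1. Axl, a receptor for apoptotic cells that also curbs Toll-like receptor signalling, had 44.0, 50.6 and 52.5 CPM with PPLG-4V-SA, against 1.04, 1.51 and 1.13 CPM with POx-SA (log2 change 5.31 ± 0.16, adjusted p = 1.33e-13). It was near POx-SA with LPS alone, at 1.59 ± 0.155 CPM. Fcgr1, the high-affinity receptor of IgG, had 214, 193 and 200.2 CPM with PPLG-4V-SA, against 18.9, 15.0 and 27.9 CPM with POx-SA (log2 change 3.30 ± 0.19, adjusted p = 2.02e-10). Itgam, the integrin chain CD11b, had 1476, 1424 and 1474 CPM with PPLG-4V-SA, against 590.0, 716 and 587 CPM with POx-SA (log2 change 1.21 ± 0.10, adjusted p = 2.68e-08). Scarb1, a receptor of high-density lipoprotein, averaged 124 ± 5.56 CPM with PPLG-4V-SA and 62.1 ± 8.88 CPM with POx-SA (log2 change 0.998 ± 0.10, adjusted p = 2.98e-07). Of the C-type lectin receptors 5 of 13 tested members rose, 5 fell and 3 did not pass the test, with a median of -0.60, while 6 rose and 3 fell on FPKM plus 1. Their median was -0.12 with no filter on low counts, 0.083 with a filter at 1 CPM, -0.014 on FPKM plus 1 and -0.33 without POx-SA replicate 3. Clec12a, an inhibitory lectin, averaged 69.8 ± 3.35 CPM with PPLG-4V-SA and 14.0 ± 3.83 CPM with POx-SA (log2 change 2.31 ± 0.15, adjusted p = 6.46e-10). Clec5a, an activating one, averaged 126 ± 9.77 CPM with PPLG-4V-SA and 47.1 ± 10.1 CPM with POx-SA (log2 change 1.42 ± 0.14, adjusted p = 1.49e-07). Clec4d and Clec4e, activating receptors of mycobacterial glycolipid, were lower, Clec4d at 159 ± 11.8 CPM with PPLG-4V-SA and 505 ± 113 CPM with POx-SA (log2 change -1.67 ± 0.15, adjusted p = 6.94e-08). Clec4e averaged 181 ± 17.1 CPM with PPLG-4V-SA and 454 ± 135 CPM with POx-SA (log2 change -1.33 ± 0.16, adjusted p = 2.11e-06).

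In the inflammasome list 11 of 21 tested members rose, 6 fell and 4 did not pass the test, with a median of 0.44, while 12 rose and 4 fell with plain library totals. The list median was 0.23 without POx-SA replicate 3. P2rx7, the ATP-gated channel that triggers the Nlrp3 inflammasome, had 18.0, 18.0 and 17.5 CPM with PPLG-4V-SA, against 863, 806 and 789 CPM with POx-SA (log2 change -5.52 ± 0.10, adjusted p = 1.41e-16). Replicates were tight in both groups, and LPS alone, at 476 ± 16.1 CPM, lay between the polymers. Ninj1, which ruptures the membrane of dying cells, had 29.7, 29.1 and 26.1 CPM with PPLG-4V-SA, against 142, 200.5 and 219 CPM with POx-SA (log2 change -2.73 ± 0.17, adjusted p = 7.78e-10). Il1b, the cytokine that inflammasomes process, and P2rx7 thus differed in opposite directions. Ifi207, an interferon-induced gene of the DNA-sensor family, averaged 219 ± 7.54 CPM with PPLG-4V-SA and 77.6 ± 9.15 CPM with POx-SA (log2 change 1.498 ± 0.10, adjusted p = 1.84e-09).

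Of the BCL2 family and apoptosis genes 8 of 27 tested members rose, 10 fell and 9 did not pass the test, with a median of -0.13, or 10 and 6 with plain library totals. That median was 0.13 with plain library totals and 0.072 on FPKM plus 1. Mcl1, a short-lived survival protein, had 377, 389.6 and 377 CPM with PPLG-4V-SA, against 1139, 1218 and 1220.0 CPM with POx-SA (log2 change -1.65 ± 0.09, adjusted p = 1.88e-10). Bcl2l11, the death-promoting Bim, averaged 68.6 ± 5.94 CPM with PPLG-4V-SA and 186 ± 15.1 CPM with POx-SA (log2 change -1.44 ± 0.10, adjusted p = 1.28e-09). The survival genes Bcl2a1d and Bcl2a1a rose, Bcl2a1d averaging 85.6 ± 3.99 CPM with PPLG-4V-SA and 20.9 ± 2.72 CPM with POx-SA (log2 change 2.03 ± 0.11, adjusted p = 1.68e-10). Bcl2a1a averaged 12.6 ± 0.747 CPM with PPLG-4V-SA and 0.638 ± 0.164 CPM with POx-SA (log2 change 4.29 ± 0.25, adjusted p = 2.26e-10). Of the lysosomal genes 14 of 42 tested members rose, 20 fell and 8 did not pass the test, with a median of -0.27, or 17 and 15 with plain library totals. That median was 0.0055 on FPKM plus 1 and -0.44 without POx-SA replicate 1. Lipa, lysosomal acid lipase, averaged 121 ± 1.66 CPM with PPLG-4V-SA and 335 ± 38.9 CPM with POx-SA (log2 change -1.47 ± 0.10, adjusted p = 8.95e-10). Atp6v1h, of the proton pump, averaged 124 ± 2.45 CPM with PPLG-4V-SA and 254 ± 24.1 CPM with POx-SA (log2 change -1.03 ± 0.09, adjusted p = 6.15e-08). Atp6v0d2, a pump subunit of osteoclasts and macrophages, rose and had 11.8, 12.9 and 15.3 CPM with PPLG-4V-SA, against 0.965, 1.66 and 1.48 CPM with POx-SA (log2 change 3.28 ± 0.25, adjusted p = 5.86e-09). Mitf, a transcription factor of lysosomal and osteoclast genes, averaged 97.0 ± 2.87 CPM with PPLG-4V-SA and 29.2 ± 8.53 CPM with POx-SA (log2 change 1.73 ± 0.19, adjusted p = 5.16e-07).

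Osteoclast genes, relevant because RAW264.7 cells can form osteoclasts, were split: 10 of 18 tested members rose, 5 fell and 3 did not pass the test, with a median of 0.87. The median was 0.52 on FPKM plus 1. Log2 fold changes of the members ran from -3.63 to 6.62. The summed level of the list was lower with PPLG-4V-SA, at 16538 to 17980 CPM of plain totals, against 20356 to 31855 CPM with POx-SA. Car2, the carbonic anhydrase that supplies protons, averaged 333 ± 19.6 CPM with PPLG-4V-SA and 161 ± 9.01 CPM with POx-SA (log2 change 1.05 ± 0.09, adjusted p = 2.21e-08). Of the macrophage identity genes 8 of 25 tested members rose, 12 fell and 5 did not pass the test, with a median of -0.32, while 8 rose and 8 fell with plain library totals and 10 rose and 7 fell on FPKM plus 1. This median was 0.012 on FPKM plus 1 and -0.19 without POx-SA replicate 3. Adgre1, the macrophage surface marker F4/80, had 543, 471 and 554 CPM with PPLG-4V-SA, against 26.3, 36.9 and 35.8 CPM with POx-SA (log2 change 3.99 ± 0.12, adjusted p = 1.49e-13). LPS alone averaged 48.8 ± 2.06 CPM. Maf, a transcription factor of macrophages, had 30.0, 27.9 and 32.9 CPM with PPLG-4V-SA and 1 count over the POx-SA libraries, a ratio of 1238 (95% counting interval 222 to 48943). Lyz1, a lysozyme, had 24.9, 20.04 and 21.5 CPM with PPLG-4V-SA, against 292, 533 and 506 CPM with POx-SA (log2 change -4.32 ± 0.20, adjusted p = 1.5e-11). Within this lineage list, Adgre1 and Maf thus rose where Lyz1 fell.

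Markers of other cells were low except in the fibroblast list and for S100a8 with POx-SA. Of the epithelial and endothelial markers, Epcam, Cdh1, Krt8, Krt18 and Krt19 of epithelium had 0 counts in both groups. Neutrophil and mast cell markers summed to 0.419 to 0.748 CPM of plain totals with PPLG-4V-SA and 32.5 to 64.2 CPM with POx-SA. S100a8 made up nearly all of the POx-SA sum, and Elane, Ngp, Kit and Cpa3 had 0 counts in both groups. S100a8, a subunit of calprotectin, had 3 counts with PPLG-4V-SA and 62.4, 35.6 and 60.6 CPM with POx-SA, a ratio of 987 (95% counting interval 337 to 4790.3) in favour of POx-SA, and LPS alone averaged 191 ± 54.8 CPM. Its partner S100a9 had 0 counts with PPLG-4V-SA and 1.19, 0.529 and 0.635 CPM with POx-SA, at least 14.6-fold lower (adjusted p = 3.02e-05). All 4 dendritic cell markers that were tested rose, among them Ccr7, the receptor for migration to lymph nodes, with 7.26, 6.21 and 6.86 CPM with PPLG-4V-SA, against 0.668, 0.0756 and 0.564 CPM with POx-SA (log2 change 3.92 ± 0.40, adjusted p = 2.58e-07), and the list summed to 15.1 to 17.1 CPM with PPLG-4V-SA and 2.31 to 4.99 CPM with POx-SA. Fscn1 rose by 2.15 ± 0.37 and Zbtb46 by 1.60 ± 0.36 on the log2 scale, and Itgax, whose groups overlap, by 0.69 ± 0.29 (adjusted p = 0.0485). The call of Itgax was lost in 12 of 17 alternatives, which left 3 of 4. Dpp4 and Siglech of that list had 0 counts in both groups. Lymphocyte markers summed to 1.55 to 2.90 CPM with PPLG-4V-SA and 0.671 to 1.49 CPM with POx-SA, and 2 of them were tested. Cd79b, of the B cell receptor, averaged 1.16 ± 0.503 CPM with PPLG-4V-SA and 0.101 ± 0.175 CPM with POx-SA (log2 change 3.45 ± 0.74, adjusted p = 0.000671). Its partner Cd79a averaged 0.526 ± 0.270 CPM with PPLG-4V-SA and 0.947 ± 0.636 CPM with POx-SA (log2 change -0.85 ± 0.68) and was not called. Ms4a1, Ncr1 and Klrb1c had 0 counts in both groups, and the other members 12 counts or fewer over the 6 libraries. Fibroblast markers, mostly Vim and S100a4, summed to 978 to 991 CPM with PPLG-4V-SA and 967 to 1178 CPM with POx-SA, S100a4 averaging 171 ± 9.73 CPM with PPLG-4V-SA and 348 ± 91.6 CPM with POx-SA (log2 change -1.03 ± 0.16, adjusted p = 4.19e-05). Acta2, Dcn and Lum were under 6 CPM in every library of both groups, with 190, 55 and 40 counts in all, and Pdgfra and Thy1 had 0 counts. Pecam1 and Vwf of endothelium did not pass the test, at 1.34 ± 0.193 CPM with PPLG-4V-SA and 1.73 ± 0.378 CPM with POx-SA and 0.805 ± 0.143 CPM with PPLG-4V-SA and 1.05 ± 0.183 CPM with POx-SA. The part of these markers in the results was not tested.

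**Figure D4:**
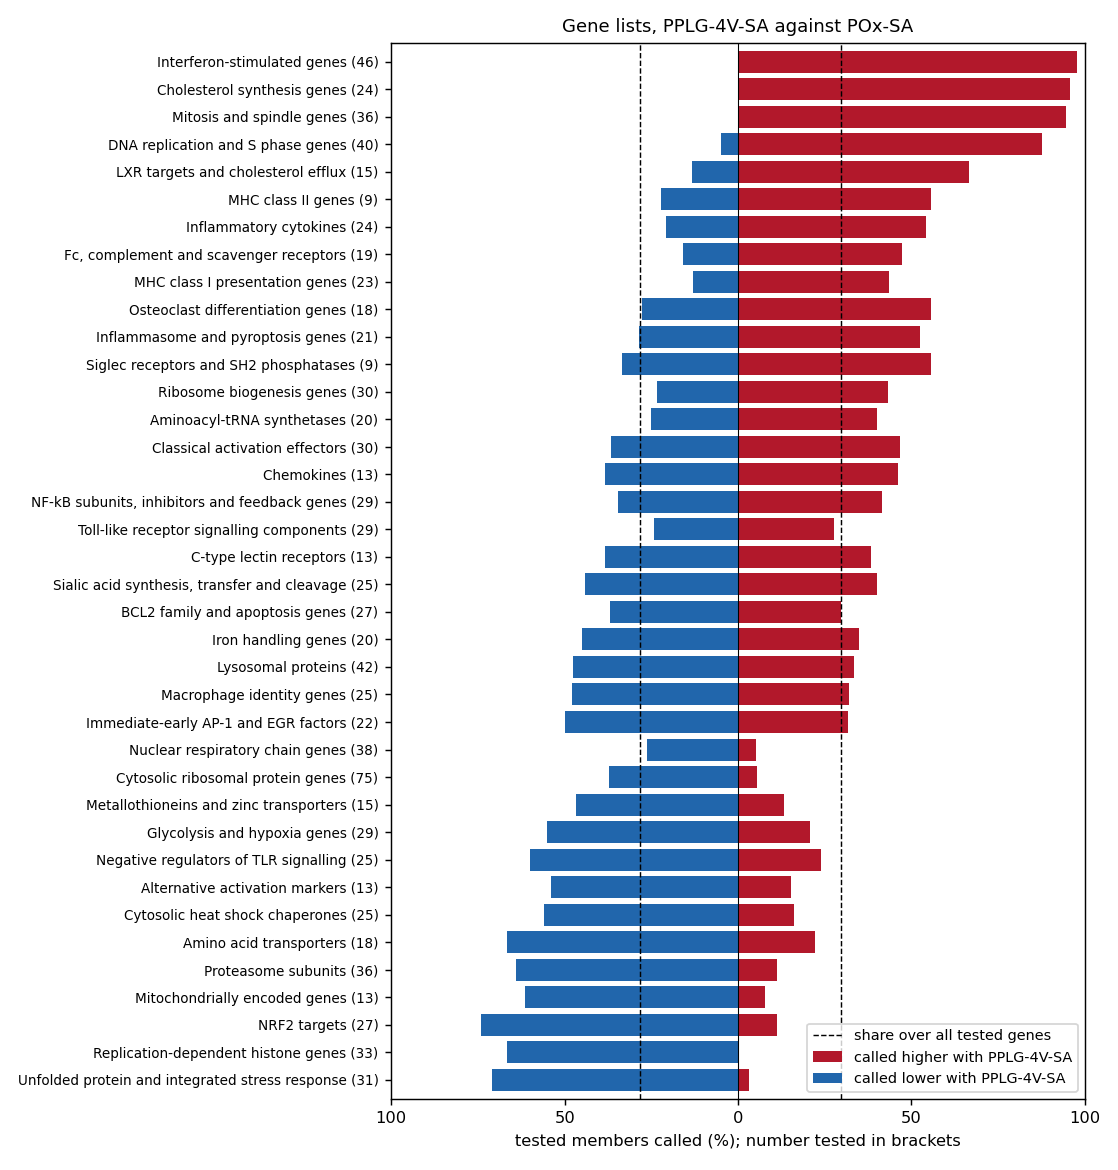
Share of tested members of each gene list called higher (red, to the right) and lower (blue, to the left) with PPLG-4V-SA against POx-SA, in percent, with the number tested in brackets; dashed lines mark the shares over all tested genes, 29.6% and 28.3%. Interferon-stimulated, cholesterol synthesis, mitosis and S phase genes stand at the top, and unfolded protein response, NRF2 and histone genes are among those at the bottom.

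The largest differences were close to presence against absence. Baiap2l1, an adaptor between membrane and actin, had 605, 611 and 576 CPM with PPLG-4V-SA, against 0.445, 0.529 and 0.141 CPM with POx-SA (log2 change 10.63 ± 0.24, adjusted p = 1.36e-15), the highest fold change of the genes named, and LPS alone averaged 1.05 ± 0.343 CPM. Lipg, endothelial lipase, had 51.1, 35.4 and 54.4 CPM with PPLG-4V-SA and 2 counts over the POx-SA libraries, a ratio of 961 (95% counting interval 266 to 7939.9). Lama4, a laminin chain, and Trpm6, a magnesium channel, had 299 and 278 counts with PPLG-4V-SA and 0 with POx-SA, at least 73.0-fold and 67.9-fold higher against the floor. Runx3, a transcription factor, had 13.2, 16.4 and 15.4 CPM with PPLG-4V-SA and 3 counts with POx-SA, a ratio of 205 (95% counting interval 70.0 to 997). Tnc, the matrix protein tenascin C, Atrnl1 and Parp8 also had 3 counts with POx-SA, and averaged 14.4, 17.5 and 11.8 CPM with PPLG-4V-SA. The adjusted p of these 3 genes was 1.91e-10, 2.84e-11 and 4.2e-10.

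On the other side, Tex101, a germ cell surface protein, had 0 counts with PPLG-4V-SA and 12.0, 12.7 and 16.6 CPM with POx-SA, at least 257-fold lower (adjusted p = 5.68e-10). Nrp1, a receptor of semaphorins and vascular growth factor, had 0 counts with PPLG-4V-SA and 12.5, 8.01 and 6.70 CPM with POx-SA, at least 168-fold lower (adjusted p = 1.21e-07). Magohb, of the exon junction complex, and Ctag2l1 had 0 counts with PPLG-4V-SA too, and averaged 8.70 ± 1.46 and 5.99 ± 1.54 CPM with POx-SA. Morc4 and Adamts1, a metalloprotease, had 2 counts each with PPLG-4V-SA and 353 each with POx-SA, a ratio of 241 (95% counting interval 66.2 to 1997) for each in favour of POx-SA. LPS alone was near POx-SA for Tex101, at 14.7 ± 2.33 CPM, and Nrp1, at 6.89 ± 1.94 CPM.

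In all, 95 genes that rose had 3 counts or fewer over the POx-SA libraries, 24 of them 0, and 143 genes that fell had 3 counts or fewer over the PPLG-4V-SA libraries, 67 of them 0. Of the 95 genes near the floor with POx-SA, 93 were above it with PPLG-SA and 92 with PPLG-2V-SA. With LPS alone 63 were above it and 32 at it, and in untreated cells 41 were above it and 54 at it. Most of the 95 were thus above the floor with LPS alone too. Both sets were picked by their PPLG-4V-SA and POx-SA counts, and the shares of all tested genes above the floor in the other groups were not counted. Of the 143 near the floor with PPLG-4V-SA, 117 were at it with PPLG-SA and 112 with PPLG-2V-SA, whereas 138 were above it with LPS alone and 136 in untreated cells. In most of these genes PPLG-SA and PPLG-2V-SA were on the same side of the floor as PPLG-4V-SA. The labels give no batch, and a difference between the cultures or runs of the PPLG groups and those of the other groups cannot be told apart from the polymers.

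**Figure D5:**
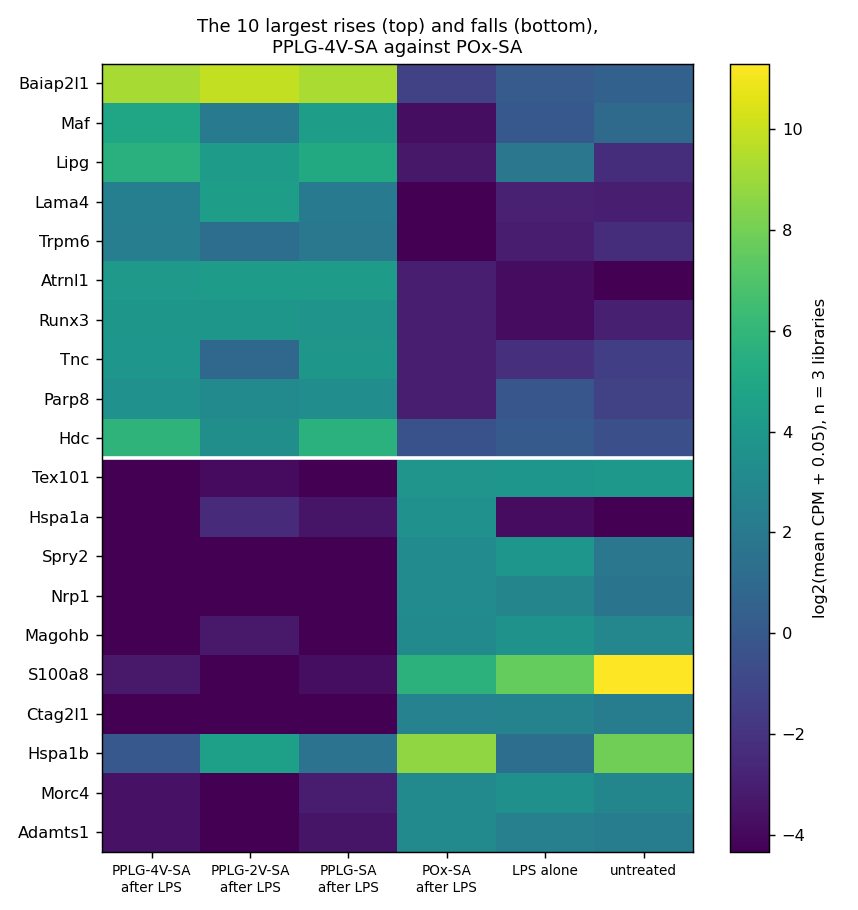
Colour gives log2(mean CPM + 0.05) over 3 libraries for the 10 genes with the largest rises (top) and the 10 with the largest falls (bottom) with PPLG-4V-SA against POx-SA, in rows, and for the 6 groups of the series, in columns. Most genes have like colours in the 3 PPLG columns, while Hspa1b, at 22.4 CPM with PPLG-2V-SA, stands between its PPLG-4V-SA and POx-SA levels.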

How the data were processed

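RNA sequencing covered 18 libraries from RAW264.7 cells under 6 treatments (3 libraries per treatment), and groups were taken from the labelled treatment. The authors deposited a table of read counts for 35510 genes and a table of FPKM (fragments scaled by gene length and library size) for 22384 genes. Per the submitters' processing notes, the genome build was GRCm39 and CASAVA was used. Which aligner and counter were used, and how strand and shared reads were treated, is not given in the sources used here. With a minimum count of 10 and a total of 15, filterByExpr kept 13482 genes, and libraries were scaled by TMM. edgeR 4.0.16 in R 4.3.3 was fitted to all 18 libraries with 1 term per treatment, which left 12 residual degrees of freedom, and PPLG-4V-SA was contrasted with POx-SA by the quasi-likelihood test. p-values were Benjamini-Hochberg adjusted over all tested genes and called below 0.05, two-sided, and fold changes are given as log2 with standard errors. A gene with 0 counts in a group was set to 3 counts over the group for a bound. That bound takes the counts of the higher group as exact and leaves out their counting error. Ratios with 1 to 3 counts have exact 95% intervals, which cover counting error only. Total counts were 13417940 to 17385958 per library of the 2 polymers. On simulated counts for this comparison over 13482 genes, 38.8% of 1.5-fold, 85.1% of 2-fold and 87.9% of 4-fold changes were recovered, with 2 false calls. The simulation changed 200 genes and gave all groups the same spread at a given expression level. In the data POx-SA replicates were looser than those of PPLG-4V-SA, and 7801 genes were called. These rates therefore hold for the simulated settings and do not measure the errors of the real comparison. Members and gene lists were chosen with earlier results of these data known. Genes named are the 10 largest rises and the 10 largest falls among called genes whose 3 values do not overlap the other 3, provided the higher group averaged 5 CPM or more and the name was not provisional. To these were added the 22 panel genes and 4 or fewer called members per other list, taken by rising p, or, in a list without calls, the 2 members of highest CPM. A few members that this rule names are not reported here. Others are said to be named after their values were seen. Same-numbered libraries of POx-SA and LPS alone correlated in their deviations from the group means at 0.166, 0.164 and 0.739 across genes, all above 0.1. POx-SA replicate 1 correlated better with LPS replicate 2, at 0.492, and POx-SA replicate 2 with LPS replicate 1, at 0.477. Only replicate 3 matched its own number best, so these values do not show that numbers mark pairs, and the labels state no pairing. Alternatives were size factors of DESeq2 1.42.0, plain totals, the DESeq2 test, other filters on low counts, limma 3.58.1 on log2 of the deposited FPKM plus 1 or 0.1, the 6 libraries alone with and without a replicate block, a test against a fold of 1.5 and leaving out libraries.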

Additional observations from a re-analysis of the deposited data

How the results depend on the processing

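Counts of genes higher and lower with PPLG-4V-SA than with POx-SA, 3986 and 3815, stayed within 1.5 times under size factors of DESeq2 (3737 and 4113), the DESeq2 test (3791 and 4188), no filter (3765 and 4143), a filter at 1 CPM (3636 and 4030) and the 6 libraries alone (3215 and 3103). With plain library totals 2541 genes were lower, and limma on FPKM plus 1 and plus 0.1 gave 2287 and 2305 lower, where 499 and 940 genes were at least 2-fold lower in place of 1601. A test against a fold of 1.5 gave 1865 higher and 1746 lower by construction. The cause of the other shifts was not tested. Leaving out 1 library of the 2 polymers gave 3554 to 3790 higher and 3356 to 4066 lower, and 1588 to 1784 and 1512 to 1767 at least 2-fold. With a replicate block in the 6 libraries, 3119 genes were higher and 2794 lower. The labels do not say that numbers mark shared cultures, deviations of same-numbered PPLG-4V-SA and POx-SA libraries correlated at 0.00665, 0.0607 and -0.0646 across genes, and PPLG-4V-SA replicate 1 correlated better with POx-SA replicate 3, at 0.0737, so the samples share only a number. Against PPLG-SA, PPLG-4V-SA gave 145 genes higher and 78 lower, and 263 higher with plain library totals, 126 lower with no filter, 672 and 783 without POx-SA replicate 3 and LPS replicate 3, and 9 to 371 higher and 2 to 233 lower with 1 library of PPLG-4V-SA or POx-SA left out. Against PPLG-2V-SA, it gave 1015 and 602, then 1810 and 1506 without POx-SA replicate 3 and LPS replicate 3, and 650 to 1253 higher and 268 to 891 lower with 1 library left out. These alternatives were chosen after seeing the data. Of 190 genes of the naming rule, 183 were called, 164 kept their call and direction in each alternative run, and 19 lost the call in at least 1, among them Itgax, Arg1 and Ndufa1, while 0 called genes reversed. Among uncalled genes, the log2 fold change of Ifnb1 was 0.27 with plain totals, 0.29 and 0.71 on FPKM plus 1 and plus 0.1, 0.26 with the replicate block, -0.44 to 1.19 with 1 library left out, and 1.19 without POx-SA replicate 3 and LPS replicate 3. Cd33 was at 0.059 with plain totals, 0.24 and 0.26 on FPKM plus 1 and plus 0.1 and -0.39 to 0.047 with 1 library left out. It gained a call, as lower, without POx-SA replicate 1 and, at -0.37, without POx-SA replicate 3 and LPS replicate 3. Socs3 was at -0.013 with size factors of DESeq2 and in the DESeq2 test, -0.022 at 1 CPM and -0.093 to 0.087 with 1 library left out. It gained a call, as higher, at 0.28 with plain totals and 0.302 and 0.304 on FPKM plus 1 and plus 0.1. Nfkbia gained one in the same 3 and without POx-SA replicate 1, at 0.46, 0.52, 0.52 and 0.27. POx-SA against LPS alone gave 2992 genes higher and 3247 lower, and in those 6 libraries 1338 and 1683 without and 2625 and 2664 with the replicate block, fits also chosen after seeing the data. Depth limits genes at 3 counts or fewer in a group: folds are bounds at 0 counts and have wide counting intervals at 1 to 3.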

Other observations

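The Y-linked genes Kdm5d, Uty, Ddx3y and Eif2s3y, 4 genes chosen after their values were seen, were higher with PPLG-4V-SA, and other genes of that chromosome were not counted. Kdm5d, a histone demethylase, averaged 57.7 ± 0.374 CPM with PPLG-4V-SA and 16.3 ± 3.72 CPM with POx-SA (log2 change 1.83 ± 0.17, adjusted p = 8.98e-08). Uty averaged 52.4 ± 3.69 CPM with PPLG-4V-SA and 21.2 ± 6.79 CPM with POx-SA (log2 change 1.30 ± 0.21, adjusted p = 3.86e-05). Ddx3y, an RNA helicase, averaged 65.7 ± 3.58 CPM with PPLG-4V-SA and 33.2 ± 8.497 CPM with POx-SA (log2 change 0.99 ± 0.19, adjusted p = 0.000219). Eif2s3y, a subunit of a translation initiation factor, averaged 117 ± 4.30 CPM with PPLG-4V-SA and 64.6 ± 2.62 CPM with POx-SA (log2 change 0.85 ± 0.08, adjusted p = 6.08e-08). Kdm5d averaged 63.5 ± 0.571 CPM with PPLG-SA and 64.3 ± 4.88 CPM with PPLG-2V-SA, against 12.7 ± 3.73 CPM with LPS alone and 15.3 ± 0.839 CPM in untreated cells, so that the 3 PPLG groups lay on one side for this gene.

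Some features were present in 1 library of a group. ND3, a mitochondrial subunit of complex I with the lowest fitted log2 fold change of all tested genes, had 0 counts in the PPLG-4V-SA libraries and 0, 0 and 78.2 CPM with POx-SA, and 0, 0 and 37.7 CPM with LPS alone. Its adjusted p of 0.0386 by edgeR's quasi-likelihood test rests on POx-SA replicate 3, as its other POx-SA values are 0. The histone gene H2bc7 had 0, 0 and 12.8 CPM with LPS alone, present there in replicate 3 as in POx-SA replicate 3.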
